A study of Mus musculus with 6 samples.

Results

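The genes described here are 36 mouse genes of 4 families of sugar-binding proteins of immune cells: C-type lectins, ficolins, galectins and Siglecs. They were taken as a named list of family members and not by a cut on a measured value. The list was chosen with earlier results of these data known. Messenger RNA was measured in macrophages grown from the bone marrow of Bach1 knockout (KO) and wild-type (WT) mice. Of the 36 genes, 35 had a probe that could be named, 33 were bright enough to test, and 15736 genes were tested in all. The KO group was 3 mice that lack Bach1, called KO 947, KO 948 and KO 949, and the WT group was 3 mice called WT 1, WT 2 and WT 3. All mice were C57BL/6 and 11 weeks old, and the labels give 2 males and 1 female in each genotype. Marrow cells of every mouse were cultured for 5 days with GM-CSF, the growth factor for granulocytes and macrophages, at 10 ng/mL, so both genotypes share that cytokine and the medium. The mice are described as independent, and each gave 1 Agilent array with 1 colour. The sources used here do not say which part of Bach1 was deleted, or whether in all cells.

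BACH1 is a heme-sensing transcriptional repressor of genes such as Hmox1. C-type lectin receptors bind sugars on microbes and on the body's own glycoproteins, and those of the Dectin-2 and Mincle type signal through Fc receptor gamma chain, SYK and CARD9 to cytokine genes. Most Siglecs bind sialic acid and carry inhibitory motifs that recruit the phosphatases SHP-1 and SHP-2. Galectins bind galactose-containing sugars inside and outside the cell, and ficolins are secreted proteins that recognise acetylated sugars and start the lectin pathway of complement. Marrow cultured in GM-CSF yields macrophages together with dendritic-like cells and granulocytes, and several of these lectins are used as markers of one or another of them.

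Levels are log2 signals after subtracting each array's log2 75th percentile, so 0 is the signal of a probe at that percentile, and differences are KO minus WT in log2 units. Levels of different probes were not set against each other. Spots well above background made up 62.5% to 65.1% of the KO arrays and 70.3% to 73.2% of the WT arrays, so all KO arrays lay below all WT arrays. Detection began at a level between -6.16 and -5.68, depending on the array, and no spot was saturated. KO 948 and KO 949 shared a slide of their own, and KO 947 was on the slide of the 3 WT mice. A slide value below is the difference with the slide as a block, which rests on KO 947 alone against the 3 WT mice.

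The labels were checked before the comparison. The single Bach1 probe read 1.45, 2.00 and 2.23 in KO 947, KO 948 and KO 949, against 2.21, 2.48 and 2.59 in WT 1, WT 2 and WT 3, and did not pass the test (difference -0.54 ± 0.24, SE, adjusted p = 0.262). Where the probe lies relative to the deleted part is not known here, so it checks nothing. Hmox1, which encodes heme oxygenase 1, averaged 7.44 ± 0.10 in KO and 5.30 ± 0.46 in WT macrophages (SD, n = 3 each; adjusted p = 0.0114). The Y-linked gene Ddx3y read 1.18, 1.09 and -7.61 in KO 947, KO 948 and KO 949, and 0.54, 0.68 and 0.92 in WT 1, WT 2 and WT 3. Eif2s3y, also Y-linked, read 3.97, 3.57 and -7.75 in the KO mice and 3.81, 4.09 and 3.56 in the WT mice. KO 949 is labelled female and lacked both transcripts, whereas WT 3 is labelled female and had both at the level of the mice labelled male. Other sex-linked probes were dim and did not separate the mice by label. Kdm5d, also Y-linked, read -4.43 in KO 949 and -5.88 in KO 947, and Uty was above background on no array. The brighter probe of the female marker Xist read -3.57 in KO 949, -3.88 in WT 1 and -6.21 in WT 3. By Ddx3y and Eif2s3y the library labelled WT 3 therefore goes against its sex label. Values without it are given where it ends a call, and for some of the genes where it stands apart.

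Of the 33 tested lectin genes, 3 passed the test in KO against WT macrophages, which is 9.09% of them, beside 3.41% of all genes. Fcna (ficolin A) and Mrc1 (the mannose receptor CD206) rose and Cd209a (a mouse homologue of DC-SIGN) fell, and the other 30 did not pass. The background was 1.14% of all genes higher and 2.27% lower. The members' share rests on 3 genes, and all members were chosen with earlier results of these data known, so no test was made of the list. The median difference was -0.06 over the 33 members and -0.01 over all genes, with 15 members positive and 18 negative. Scaling the arrays to their median in place of the 75th percentile moved the median of all genes by 0.22 and left 21 members positive and 12 negative. The median size of the difference, without its sign, was 0.39 among members and 0.25 among all genes.

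Individual arrays of the 2 genotypes did not overlap for 14 of the 33 members (42.4%), beside 26.9% of all genes. In 6 of these, Clec1b, Clec4b1, Mrc1, Fcna, Lgals1 and Cd33, every KO mouse was above every WT mouse (13.4% of all genes did so). In 8, Clec2d, Clec4a3, Clec4e, Cd209a, Cd209d, Fcnb, Lgals4 and Siglecg, every KO mouse was below every WT mouse (13.5% of all genes). An unadjusted p under 0.05 was reached by 11 members (33.3%), beside 20.4% of all genes. At an adjusted p under 0.1 the members called were 7, with Clec4e, Cd209d, Lgals4 and Siglecg added on the lower side, beside 7.31% of all genes. For 20 of the 33 members the 95% interval of the difference lay within 1 log2 unit of 0 on both sides, so for these a doubling or halving of the array signal lies outside the interval.

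**Figure D1:**
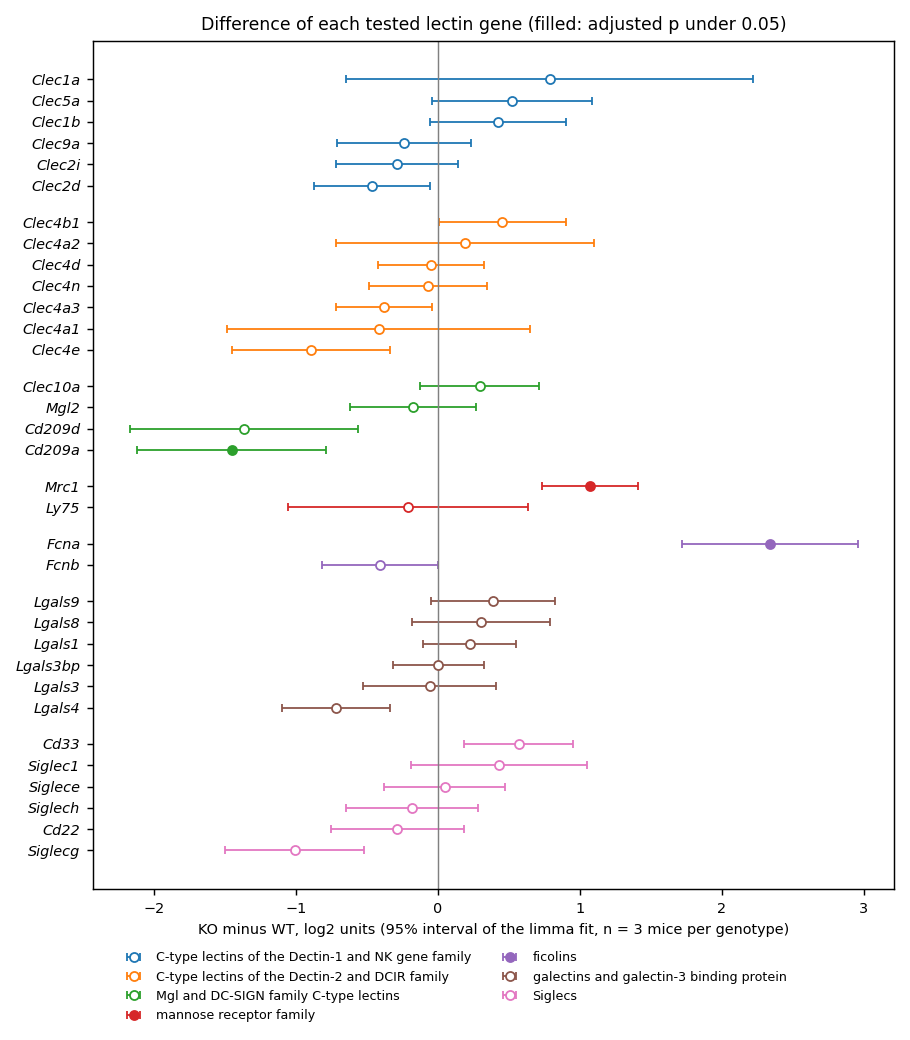
Difference KO minus WT in log2 units (x axis) for each of the 33 tested lectin genes (rows, grouped and coloured by class), with the 95% interval of the limma fit over 3 mice per genotype. The 3 filled points passed the test: Fcna at 2.34, Mrc1 at 1.07 and Cd209a at -1.45, and the other 30 points are open.

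With the slide as a block, 84 of all genes (0.534%) and 0 of the 33 members passed the limma test, with 8 members at an unadjusted p under 0.05. The slide values were 2.42 for Fcna (adjusted p = 0.0669), 1.09 for Mrc1 (adjusted p = 0.0756) and -1.06 for Cd209a (adjusted p = 0.214). With the slide as a random block 255 of all genes (1.62%) and 2 members passed, Fcna (adjusted p = 0.0193) and Mrc1 (adjusted p = 0.0294). Without WT 3 the difference was 2.08 for Fcna (adjusted p = 0.0156), 1.01 for Mrc1 (adjusted p = 0.0495) and -1.59 for Cd209a (adjusted p = 0.0846). The 2 that rose therefore still passed without the array whose sex label is in doubt, and Cd209a did not.

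The ficolins were the class with the largest median difference, 0.97, over 2 genes that lay on opposite sides of 0. Fcna encodes ficolin A, which circulates in plasma and is made by liver and spleen macrophages. It read 2.83, 2.70 and 2.70 in KO 947, KO 948 and KO 949, against 0.92, 0.40 and -0.10 in WT 1, WT 2 and WT 3. The KO mice lay close together and all above the highest WT mouse, and the WT mice spread more widely. Fcna averaged 2.74 ± 0.07 in KO and 0.41 ± 0.51 in WT macrophages, a 5.06-fold higher signal (difference 2.34 ± 0.26, SE, n = 3 each, adjusted p = 0.0114). It had 1 probe on the array. Fcnb encodes ficolin B, which is made by neutrophils and their precursors. Fcnb read -2.19, -2.08 and -2.17 in the KO mice and -1.58, -1.61 and -2.04 in the WT mice. The KO values lay just below the lowest WT value, and the difference of -0.41 ± 0.17 did not pass (adjusted p = 0.248). The difference between the 2 ficolin genes' responses was not tested.

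Of 8 tested markers of neutrophils and their precursors other than Fcnb, 1 fell (2.27% of all genes did). That was S100a9, a subunit of calprotectin, with 5.20 ± 0.15 in KO and 6.21 ± 0.11 in WT macrophages. S100a9 lost that call under the slide block (adjusted p = 0.0660) and without WT 3 (adjusted p = 0.0553). The other 7 did not pass, and 1 difference was positive, that of the elastase gene Elane at 0.20 (adjusted p = 0.603), which was named after its value was seen. The summed signal of the 8 markers, on the linear scale relative to the 75th percentile, was 97.4 to 117 in KO and 166 to 205 in WT mice, and each named marker was above background on an array of each genotype. Their part in the Fcnb value was not tested. In these cultures fewer cells of a type and less RNA per cell cannot be told apart.

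Of 5 tested markers of red pulp and iron-recycling macrophages other than the lectins, 3 rose and 1 fell, so they did not all move to the side of Fcna. Among all genes 1.14% rose and 2.27% fell. Spic, the transcription factor of red pulp macrophages, averaged 3.13 ± 0.20 in KO and -0.08 ± 0.78 in WT macrophages. Slc40a1, the iron exporter ferroportin, averaged 6.41 ± 0.11 in KO and 4.68 ± 0.52 in WT macrophages. Hmox1 is given above, and Vcam1, the adhesion molecule that fell, averaged -1.38 ± 0.48 in KO and 1.18 ± 0.22 in WT macrophages. Cd5l, which encodes a secreted protein of tissue macrophages and is named after its values were seen, read -0.02, 1.23 and 0.69 in the KO mice and 1.85, 1.51 and 1.77 in the WT mice. Its groups did not overlap, with KO below WT, and its difference of -1.07 did not pass (adjusted p = 0.125). Under the slide block 0 of the 5 passed the limma test and 5 had an unadjusted p under 0.05, beside 2832 of 15736 genes. Spic was at an adjusted p of 0.0848 there and Slc40a1 at 0.139. Without WT 3 Slc40a1 did not pass (adjusted p = 0.0731). The summed signal of the 5 was 257 to 292 in KO and 58.9 to 102 in WT mice, most of it from Hmox1 and Slc40a1, and Cd163, the haptoglobin-hemoglobin receptor, was above background on no KO array. Their part in the Fcna result was not tested.

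The promoters of the 3 genes that passed, and of Fcnb for contrast with Fcna, are shown because they hold the start sites of the genes the results turn on. They are RefSeq sequences (GRCm38.p6) from 250 bases before to 50 after the start site, 5′ to 3′ in the direction of the gene. Capitals mark matches to GAGGAA or its reverse complement TTCCTC, the core letters of a PU box, which is bound by the myeloid factor PU.1.
Fcna promoter (chr2:25627925-25628224, minus strand): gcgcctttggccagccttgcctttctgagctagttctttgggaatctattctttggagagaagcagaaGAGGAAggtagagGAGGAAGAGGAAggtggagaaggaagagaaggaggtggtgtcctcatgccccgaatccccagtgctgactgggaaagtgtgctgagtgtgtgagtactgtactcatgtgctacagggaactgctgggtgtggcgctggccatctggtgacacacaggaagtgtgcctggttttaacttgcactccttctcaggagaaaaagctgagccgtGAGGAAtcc
Fcnb promoter (chr2:28084829-28085128, minus strand): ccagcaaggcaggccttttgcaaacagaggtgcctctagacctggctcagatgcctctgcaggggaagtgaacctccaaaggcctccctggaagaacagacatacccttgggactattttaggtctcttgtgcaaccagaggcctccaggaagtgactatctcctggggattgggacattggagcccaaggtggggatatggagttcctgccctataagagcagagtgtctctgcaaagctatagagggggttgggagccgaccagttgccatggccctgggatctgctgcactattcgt
Mrc1 promoter (chr2:14229164-14229463, plus strand): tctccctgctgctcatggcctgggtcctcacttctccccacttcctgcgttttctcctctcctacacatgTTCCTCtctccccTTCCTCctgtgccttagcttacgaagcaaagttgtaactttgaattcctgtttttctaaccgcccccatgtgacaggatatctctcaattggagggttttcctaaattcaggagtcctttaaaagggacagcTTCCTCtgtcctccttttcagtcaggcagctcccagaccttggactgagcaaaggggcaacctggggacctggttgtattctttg
Cd209a promoter (chr8:3748935-3749234, minus strand): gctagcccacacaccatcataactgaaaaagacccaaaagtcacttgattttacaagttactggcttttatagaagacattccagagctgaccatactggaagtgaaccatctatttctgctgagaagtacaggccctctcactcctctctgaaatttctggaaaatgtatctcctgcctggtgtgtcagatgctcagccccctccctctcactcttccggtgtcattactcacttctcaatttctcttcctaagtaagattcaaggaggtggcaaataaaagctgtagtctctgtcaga

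These letters occurred 4 times in the Fcna promoter and 3 times in that of Mrc1, and they did not occur in the Fcnb or Cd209a windows. On either strand they stood in 28.3% of the 32851 promoters of the table, and 3 or more times in 0.685%. RefSeq promoters were found for 30 of the 36 members, in 34 windows, of which 20 (58.8%) held the letters, and 4 windows held them 3 or more times: those of Fcna, Mrc1, Clec4d and Siglece. The core of the antioxidant response element, TGACNNNGC on either strand, stood in 12.4% of all promoters and in 5 of the 34 member windows (14.7%), which belong to Cd209d, Siglece, Siglecg and Siglech. A match is a match of letters only, and a window without one says nothing about a factor.

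Mrc1 was the member of the mannose receptor family that passed. Its product takes up glycoproteins with mannose, fucose or sulfated sugars, and it is a common marker of alternatively activated macrophages. Mrc1 read 4.79, 4.71 and 4.79 in KO 947, KO 948 and KO 949, against 3.84, 3.67 and 3.57 in WT 1, WT 2 and WT 3. Both groups were tight and did not overlap. It averaged 4.76 ± 0.04 in KO and 3.69 ± 0.14 in WT macrophages, a 2.10-fold higher signal (difference 1.07 ± 0.14, SE, n = 3 each, adjusted p = 0.0170). Ly75 (DEC-205), an endocytic receptor of dendritic cells, read -2.75, -3.52 and -4.03 in the KO mice and -3.64, -2.89 and -3.15 in the WT mice. The groups of Ly75 overlapped, with a difference of -0.21 ± 0.36 (adjusted p = 0.781) and an interval from -1.06 to 0.64. Mrc2 (Endo180), a collagen receptor of fibroblasts and other stromal cells, was dim and not tested, with -5.97, -5.95 and -6.56 in the KO mice and -6.20, -5.99 and -3.83 in the WT mice. A second Mrc2 probe, also too dim to test, read -7.23, -7.66 and -7.40 in the KO mice and -4.19, -4.79 and -5.68 in the WT mice. The first probe was above background in WT 3 only and the second in WT 1 and WT 2 only, so each WT mouse and no KO mouse had a probe above background. Of 6 tested fibroblast markers 3 fell (2.27% of all genes did) and 3 did not pass, and all 6 differences were negative. Their summed signal was 0.335 to 1.22 in KO and 4.68 to 24.7 in WT mice, with WT 3 the lowest of the WT mice and WT 1 and WT 2 at 22.7 or more. The proteoglycan gene Dcn, named after its values were seen, overlapped between the groups (adjusted p = 0.694). Without WT 3 the markers that fell were 5, and under the slide block 1, Sparc. Lum was above background on no array, and Pdgfra on no KO array. Their part in the Mrc2 values was not tested.

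**Figure D2:**
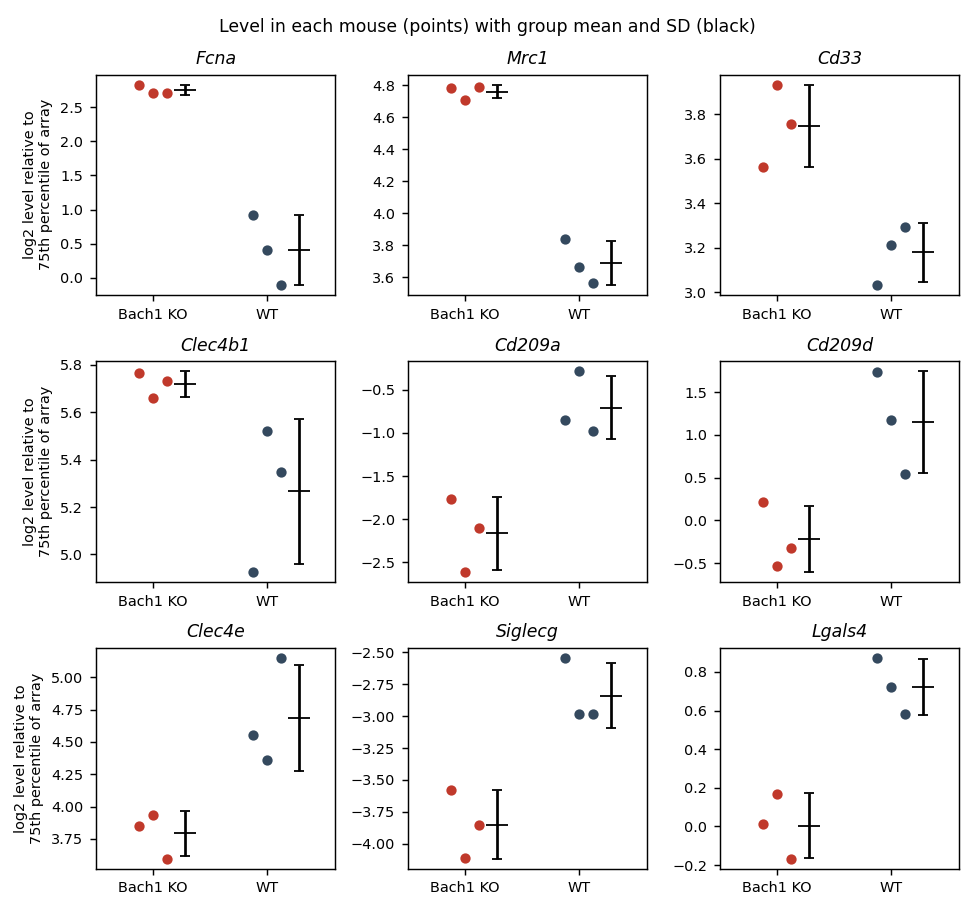
Level of selected lectin genes in each mouse (points, log2 level on the y axis), with KO left of WT and bars for the mean and SD of 3 mice. Fcna lies at 2.70 to 2.83 in KO and at -0.10 to 0.92 in WT mice, Mrc1 at 4.71 to 4.79 in KO and 3.57 to 3.84 in WT mice, and Cd209a at -2.61 to -1.77 in KO and -0.98 to -0.29 in WT mice.

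The Mgl and DC-SIGN family had a median difference of -0.77 over 4 genes, of which 1 fell. Cd209a encodes a receptor of dendritic cells grown with GM-CSF that is related to human DC-SIGN. It read -1.77, -2.61 and -2.11 in KO 947, KO 948 and KO 949, against -0.86, -0.29 and -0.98 in WT 1, WT 2 and WT 3. All KO mice lay below all WT mice, and the level averaged -2.16 ± 0.42 in KO and -0.71 ± 0.37 in WT macrophages. The signal was 2.74-fold lower (difference -1.45 ± 0.28, SE, n = 3 each, adjusted p = 0.0462), close to the threshold. A second Cd209a probe, above background on 2 arrays and not tested, read -7.11, -7.26 and -7.21 in the KO mice and -5.79, -5.53 and -5.16 in the WT mice. Cd209d (SIGNR3), which lies close to it on chromosome 8 with 1 gene between them, read 0.21, -0.54 and -0.32 in the KO mice and 1.73, 1.18 and 0.55 in the WT mice. These groups did not overlap either, but the difference of -1.37 ± 0.34 did not pass (adjusted p = 0.0848).

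Mgl2 and Clec10a lie next to each other on chromosome 11 and encode the macrophage galactose-type lectins 2 and 1, markers of alternatively activated macrophages and some dendritic cells. Mgl2 read 5.91, 6.41 and 6.33 in the KO mice and 6.56, 6.31 and 6.31 in the WT mice. Clec10a read 4.24, 4.57 and 4.74 in the KO mice and 4.24, 4.32 and 4.12 in the WT mice. Both pairs of groups overlapped, with differences of -0.18 ± 0.19 for Mgl2 (adjusted p = 0.641, interval -0.62 to 0.27) and 0.29 ± 0.18 for Clec10a (adjusted p = 0.401, interval -0.13 to 0.71). Of the genes often used to mark alternatively activated macrophages in this family and the last, Mrc1 thus passed and these 2 did not, though the differences between them were not tested.

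Of 7 tested markers of conventional dendritic cells other than lectins, 3 fell (2.27% of all genes did) and all 7 differences were negative. The others did not pass: Flt3 at -0.72 (adjusted p = 0.291), Zbtb46 at -0.23 (0.535), Itgax at -0.31 (0.267) and Dpp4 at -1.47 (0.106). The groups overlapped for Flt3 and Zbtb46. Ccr7, the chemokine receptor of migrating dendritic cells, averaged 1.37 ± 0.19 in KO and 3.97 ± 0.42 in WT macrophages. Cd83, a maturation marker, averaged 1.90 ± 0.21 in KO and 3.89 ± 0.28 in WT macrophages, and Ciita, the activator of MHC class II genes, averaged 0.91 ± 0.22 in KO and 2.80 ± 0.21 in WT macrophages. The summed signal of the 7 was 60.1 to 67.3 in KO and 102 to 115 in WT mice, most of it from Itgax. Xcr1 was above background on no array. All 3 markers that fell still did so without WT 3, and under the slide block 1 passed, Ciita (adjusted p = 0.0404). Their part in the Cd209a result was not tested. Of 7 tested macrophage markers 0 passed the limma test, and 0 had an unadjusted p under 0.05 (1 under the slide block). Their summed signal was 343 to 378 in KO and 324 to 364 in WT mice. In 3 every KO mouse lay above every WT mouse (13.4% of all genes), and in 1 below (13.5%).

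The Dectin-2 and DCIR family lies in 1 cluster on chromosome 6, and 0 of its 7 genes passed the limma test, with 3 at an unadjusted p under 0.05. Its median difference was -0.07 (-0.34 with the slide as a block, 0.15 with scaling to the array median). Clec4e encodes Mincle, the receptor for mycobacterial cord factor and for material from dead cells. It read 3.85, 3.93 and 3.60 in KO 947, KO 948 and KO 949, against 4.55, 4.36 and 5.15 in WT 1, WT 2 and WT 3. All KO mice lay below all WT mice, with WT 3 the highest, and the difference of -0.90 ± 0.23 did not pass (adjusted p = 0.0976), nor did that of -0.67 without WT 3 (adjusted p = 0.149). Its neighbours on the chromosome gave other values. Clec4d, which encodes the Mincle partner MCL, read 6.77, 6.51 and 6.81 in the KO mice and 6.76, 6.87 and 6.61 in the WT mice. Clec4n (Dectin-2), a receptor for fungal mannans, read 7.46, 7.45 and 7.68 in the KO mice and 7.86, 7.56 and 7.39 in the WT mice. The groups overlapped for both, and the intervals of the difference were narrow, from -0.42 to 0.32 for Clec4d and from -0.49 to 0.35 for Clec4n. With scaling to the array median the differences turned from -0.05 to 0.17 for Clec4d and from -0.07 to 0.15 for Clec4n.

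The 4 other genes of the cluster belong to the dendritic cell immunoreceptor (DCIR) group or lie among it. Clec4a3 (DCIR3) read 4.55, 4.55 and 4.44 in the KO mice and 4.76, 4.89 and 5.02 in the WT mice, and Clec4b1 (DCAR) read 5.77, 5.66 and 5.73 in the KO mice and 4.93, 5.52 and 5.35 in the WT mice. Neither pair of groups overlapped, on opposite sides, and neither difference passed (-0.38 ± 0.14 for Clec4a3, adjusted p = 0.200, and 0.45 ± 0.19 for Clec4b1, adjusted p = 0.239). A second Clec4b1 probe differed by 0.17. Clec4a2 (DCIR1), which carries an inhibitory motif, averaged -0.74 ± 0.58 in KO and -0.94 ± 0.56 in WT macrophages. Clec4a1 averaged 2.69 ± 0.69 in KO and 3.11 ± 0.68 in WT macrophages, with KO 947 and WT 3 at the ends (1.89 and 3.89). Without WT 3 its difference was -0.0267, against -0.42 with all mice. These 2 genes had the widest spread between mice of the cluster, and neither passed (adjusted p = 0.816 for Clec4a2 and 0.646 for Clec4a1).

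Of the 8 genes of the Dectin-1 and natural killer gene family, 6 were tested and 0 passed the limma test, with 1 at an unadjusted p under 0.05. Clec7a (Dectin-1), the receptor for fungal beta-glucan, could not be tied to a probe through the accessions used and was not analysed here. Clec12a, an inhibitory receptor for uric acid crystals, was dim and not tested, with -7.54, -3.87 and -4.21 in the KO mice and -5.73, -7.98 and -6.12 in the WT mice. Only KO 948 and KO 949 lay above background for it. Clec2d, a ligand of an inhibitory NK cell receptor, was the gene with the unadjusted p under 0.05, at 0.34 ± 0.18 in KO and 0.81 ± 0.19 in WT macrophages (difference -0.47 ± 0.17, adjusted p = 0.191). Clec5a, a DAP12-coupled receptor for viruses, averaged -2.40 ± 0.37 in KO and -2.92 ± 0.25 in WT macrophages (0.52 ± 0.24, adjusted p = 0.278). Clec9a (DNGR-1), which binds exposed actin of dead cells, averaged 1.67 ± 0.26 in KO and 1.91 ± 0.22 in WT macrophages (adjusted p = 0.545). Clec2i, another ligand gene of the NK family, differed by -0.29 ± 0.18 (adjusted p = 0.420). Clec1a was the least precise of all members, with an interval from -0.65 to 2.22 and WT 1 at -5.70, near the floor of detection. Of 4 tested endothelial markers other than Clec1a, which endothelium also expresses, 0 passed the limma test and 0 had an unadjusted p under 0.05. Of 9 tested T and NK cell markers 0 passed and 1 had an unadjusted p under 0.05.

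Clec1b (CLEC-2), the podoplanin receptor of platelets, read 4.15, 4.27 and 4.75 in the KO mice and 4.04, 4.06 and 3.79 in the WT mice. The groups did not overlap, but the difference of 0.42 ± 0.20 did not pass (adjusted p = 0.294), it was 0.19 with the slide as a block, and the other Clec1b probes differed by -0.08 and 0.17. Of 4 tested platelet and megakaryocyte markers other than Clec1b, 0 passed the limma test and 0 had an unadjusted p under 0.05. Their summed signal was 173 to 209 in KO and 144 to 212 in WT mice, most of it from Pf4. Gp1ba was above background on no array and Itga2b on no KO array.

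Of the 6 galectin genes 0 passed the limma test, 1 had an unadjusted p under 0.05, and the median difference was 0.11. Lgals3, which encodes the macrophage marker galectin-3, read 7.37, 7.47 and 7.75 in KO 947, KO 948 and KO 949, against 7.84, 7.63 and 7.29 in WT 1, WT 2 and WT 3. Lgals1 (galectin-1) read 7.06, 6.99 and 7.17 in the KO mice and 6.93, 6.84 and 6.78 in the WT mice. The Lgals3 groups overlapped fully (difference -0.06 ± 0.20, interval -0.53 to 0.41), and the Lgals1 groups were side by side without overlap (0.22 ± 0.14, interval -0.10 to 0.55, adjusted p = 0.410). Lgals3bp, the secreted galectin-3 binding protein, averaged 6.29 ± 0.07 in KO and 6.29 ± 0.07 in WT macrophages, with an interval from -0.32 to 0.32. Lgals8 and Lgals9, tandem-repeat galectins that bind damaged vesicles, differed by 0.30 ± 0.20 (adjusted p = 0.453) and 0.39 ± 0.18 (adjusted p = 0.293).

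Lgals4, a tandem-repeat galectin best known from the gut epithelium, was the galectin with the unadjusted p under 0.05. It read 0.01, 0.17 and -0.17 in the KO mice and 0.87, 0.72 and 0.58 in the WT mice, all KO mice below all WT mice. The difference of -0.72 ± 0.16 did not pass (adjusted p = 0.0667), and the other Lgals4 probes gave close values, -0.68 and -0.65.

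Among the Siglecs 0 of 6 genes passed the limma test, 2 had an unadjusted p under 0.05 and the median difference was -0.07 (-0.28 with the slide as a block, 0.15 with scaling to the array median). Cd33, a sialic acid receptor of myeloid cells, read 3.56, 3.93 and 3.76 in KO 947, KO 948 and KO 949, against 3.03, 3.21 and 3.29 in WT 1, WT 2 and WT 3. All KO mice lay above all WT mice, and the difference of 0.57 ± 0.16 did not pass (adjusted p = 0.118). Siglecg, an inhibitory Siglec of B cells and some myeloid cells, read -3.58, -4.11 and -3.85 in the KO mice and -2.55, -2.99 and -2.98 in the WT mice. The difference of -1.01 ± 0.21 lay just outside the threshold (adjusted p = 0.0532), and a second Siglecg probe differed by 0.20, so the probes disagree on the direction.

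Siglec1 (sialoadhesin, CD169), a marker of marginal zone and lymph node macrophages, read -1.31, -1.71 and -2.09 in the KO mice and -1.95, -1.93 and -2.52 in the WT mice. The groups overlapped (difference 0.43 ± 0.26, adjusted p = 0.403), and a second Siglec1 probe differed by -0.16. Siglece, an inhibitory Siglec of neutrophils and macrophages, averaged 3.06 ± 0.28 in KO and 3.01 ± 0.08 in WT macrophages (adjusted p = 0.909). Cd22, the B cell Siglec, averaged 1.37 ± 0.11 in KO and 1.65 ± 0.32 in WT macrophages (adjusted p = 0.464). Of 6 tested B cell markers other than Cd22, 0 passed the limma test and 2 had an unadjusted p under 0.05. Their summed signal was 24.4 to 35.1 in KO and 15.8 to 23.6 in WT mice, most of it from Blnk. Ms4a1 was above background on no array.

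Siglech, the marker of plasmacytoid dendritic cells, had probes that differed in brightness and size of change. The brighter probe, which was tested, read 5.96, 6.30 and 6.30 in the KO mice and 6.68, 6.20 and 6.23 in the WT mice (difference -0.18 ± 0.19, adjusted p = 0.645). The dimmer read -5.69, -5.39 and -5.42 in the KO mice and -4.36, -4.09 and -4.87 in the WT mice, without overlap (difference -1.06, adjusted p = 0.0668 among all probes). Of 6 tested markers of plasmacytoid dendritic cells other than Siglech, 1 fell (2.27% of all genes did). That was the kallikrein gene Klk1, with 1.35 ± 0.24 in KO and 2.71 ± 0.11 in WT macrophages. Klk1 lost that call under the slide block (adjusted p = 0.0737). The summed signal of the 6 overlapped, at 54.6 to 85.5 in KO and 63.7 to 88.9 in WT mice, most of it from Bst2. All 6 differences were negative, with a median of -0.99 (slide value -0.85). In the limma test 4 had an unadjusted p under 0.05 (20.4% of all genes). In 3 every KO mouse lay below every WT mouse (13.5% of all genes). Both counts include Runx2, whose tested probe was above background on 3 WT and 0 KO arrays. It was kept for testing only through the WT mice, so its part in these counts carries no weight. The part of these markers in the Siglech values was not tested.

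**Figure D3:**
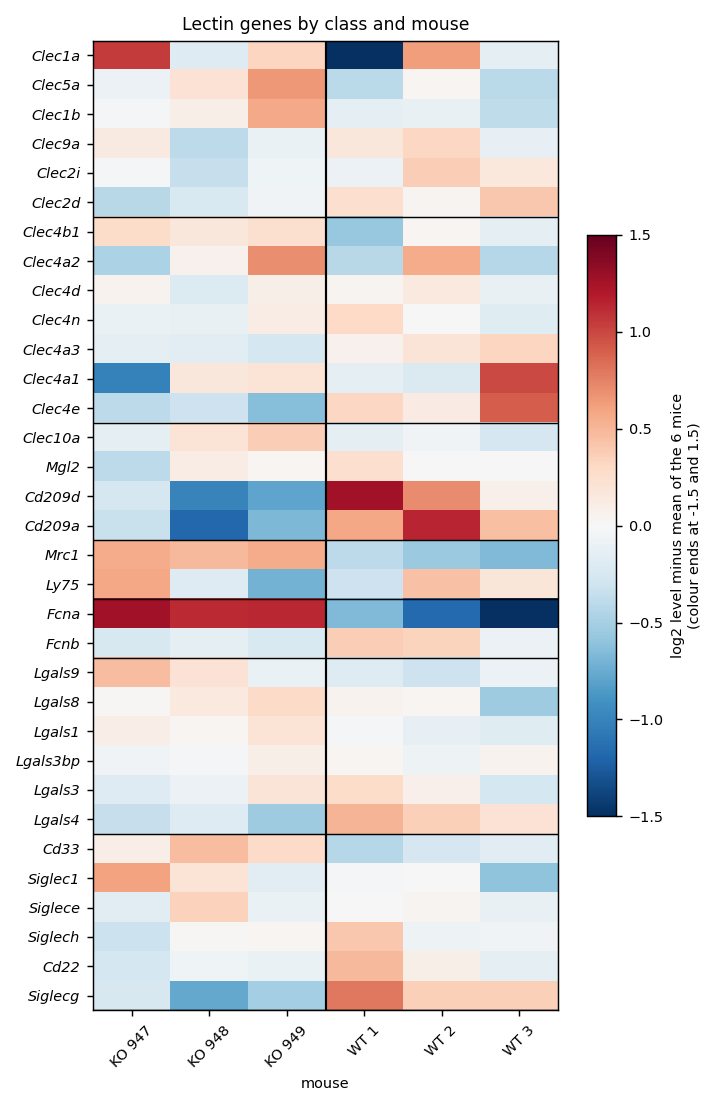
Level of the 33 tested lectin genes (rows, by class) in each mouse (columns, KO 947, KO 948, KO 949, then WT 1, WT 2, WT 3), as the log2 difference from the gene's mean over the 6 mice, with colours ending at -1.5 and 1.5. Fcna and Mrc1 are above their mean in all 3 KO mice, Cd209a, Cd209d, Siglecg and Clec4e are below it in all 3, and most galectin rows are close to 0.

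A difference in response by sex could be looked at only with 1 mouse labelled female per genotype, of which WT 3 goes against its label. The interaction of genotype and sex passed for 4 of all genes (0.0254%) and for 0 of the 33 lectins, with 1 at an unadjusted p under 0.05 and a smallest adjusted p of 0.672 among them.

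The genes around the lectins were looked at as lists. Of 21 tested genes for signalling downstream of lectin receptors, 0 rose and 1 fell (2.27% of all genes did), and the median difference was -0.03. The one that fell was Map3k14, the kinase NIK of the noncanonical NF-kappaB pathway, with 0.94 ± 0.15 in KO and 2.27 ± 0.27 in WT macrophages (-1.33 ± 0.18, adjusted p = 0.0198). It lost that call under the slide block (adjusted p = 0.106) and without WT 3 (adjusted p = 0.0585). Il23a was above background on no array. Of 8 tested genes of the inhibitory arm 0 passed the limma test and 0 had an unadjusted p under 0.05, and the median was 0.08 (slide value -0.11). The ends of that list were Ptpn6, which encodes SHP-1, at -0.24 and the adaptor gene Dok2 at 0.24. Of 7 tested genes of the lectin complement pathway 0 passed the limma test, 3 had an unadjusted p under 0.05 and the median was -0.16. Its protease gene Masp2, whose product ficolins activate, differed by 0.51 (adjusted p = 0.397) and the central component gene C3 by -0.53 (adjusted p = 0.237). Mbl2 and Colec10 were above background on no array, and Masp1 and Mbl1 on no KO array. Mbl1 is 1 of the 3 with an unadjusted p under 0.05 and was kept for testing only through the WT arrays. Of 17 tested genes that make, transfer or remove sialic acid, the ligand of Siglecs, 0 passed the limma test and 5 had an unadjusted p under 0.05. Their median was 0.31 with 13 differences positive, and they included Cmah at 0.97 (adjusted p = 0.267) and Nanp at 0.86 (adjusted p = 0.188). The positive ones also include Neu1 at 0.22 and Neu3 at 0.41, sialidase genes whose products remove sialic acid.

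A wider list of other lectin genes held 28 tested genes, of which 2 rose and 3 fell, and their median was -0.22 (slide value -0.03). Among all genes 1.14% rose and 2.27% fell. Clec4a4 (DCIR2), a receptor of a dendritic cell subset, averaged 0.78 ± 0.16 in KO and 3.15 ± 0.44 in WT macrophages (-2.36 ± 0.24, adjusted p = 0.0103). It belongs to the DCIR group, whose 4 listed relatives above did not pass. Klrb1b, an inhibitory NK receptor gene whose product binds the Clec2d protein, averaged -3.35 ± 0.66 in KO and -0.85 ± 0.22 in WT macrophages (adjusted p = 0.0174). Asgr2, a subunit of the asialoglycoprotein receptor, averaged 3.27 ± 0.51 in KO and 4.72 ± 0.27 in WT macrophages (adjusted p = 0.0484). Clec18a, which rose, was named after its value was seen, with -2.82 ± 0.25 in KO and -3.96 ± 0.08 in WT macrophages (adjusted p = 0.0256). Under the slide block 0 of the 28 passed the limma test and 10 had an unadjusted p under 0.05, beside 2832 of 15736 genes. The adjusted p-values there were 0.0622 for Clec4a4, 0.0606 for Klrb1b, 0.0528 for Asgr2 and 0.0534 for Clec18a. Without WT 3 Clec4a4 still fell (adjusted p = 0.00938), whereas Klrb1b (0.0547), Asgr2 (0.120) and Clec18a (0.0728) did not pass.

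**Figure D4:**
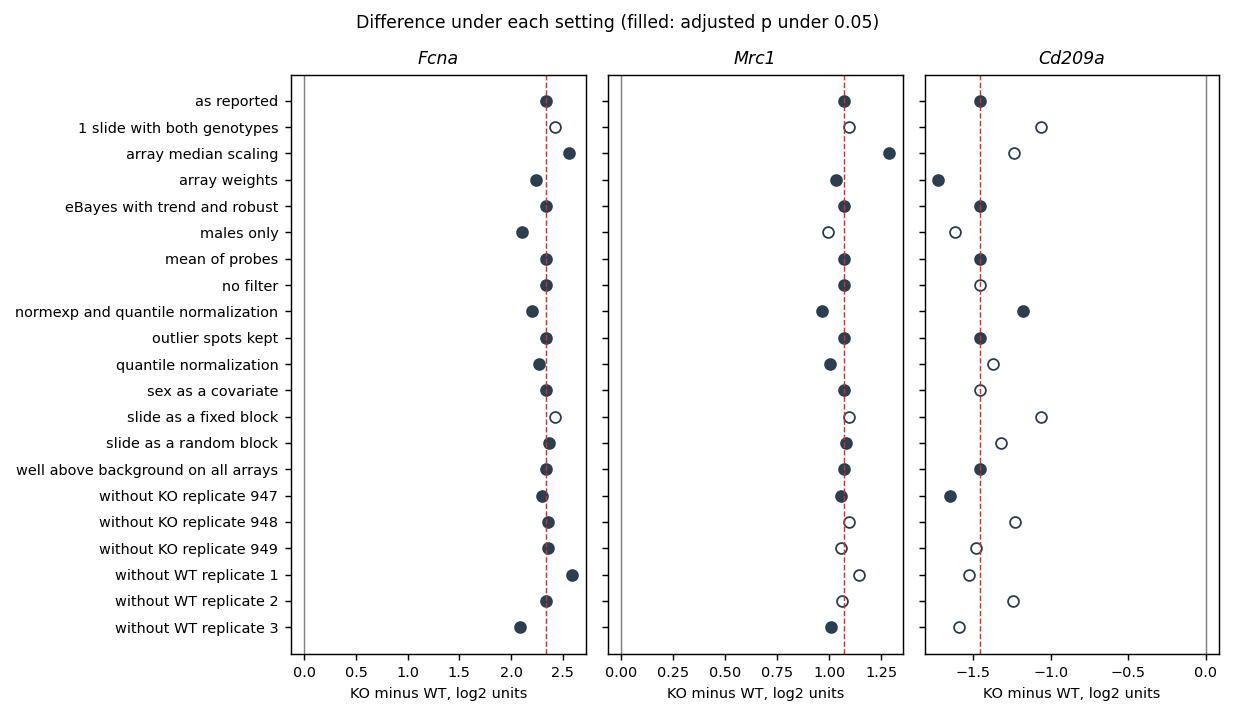
Difference KO minus WT in log2 units (x axis) of Fcna, Mrc1 and Cd209a (panels) as reported and under each alternative setting of the processing (rows), filled where the adjusted p was under 0.05. Fcna passed under 18 of 20 alternatives, Mrc1 under 13 and Cd209a under 7, and none of the 3 changed sign.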

How the data were processed

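RNA of 6 mice (3 KO, 3 WT) was read on 6 arrays of 1 colour. The deposited files give an intensity per spot, which per the file headers was background-subtracted and spatially detrended. The headers name Agilent Feature Extraction 10.7.3.1, and the submitters' processing notes name version 9.1. A deposited table of log2 values holds probes that separate the genotypes, was centred per probe, and includes probes of 5 members. It served as an alternative only.

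From the processed signal, log2 minus the array's log2 75th percentile was taken, outlier spots (0.196% to 0.386%) were left out, and spots of a probe were averaged. Of 55681 probes, 26413 had a symbol through their transcript accession and RefSeq (20018 symbols). Probes well above background on 3 or more of the 6 arrays were kept, and the brightest passing probe stood for its gene. Genotypes were compared with limma 3.58.1 (lmFit, eBayes) in R 4.3.3 with no covariate. Tests were two-sided, p-values were adjusted over all genes tested by Benjamini-Hochberg, and the threshold was 0.05. The fit was tested on simulated data. The number of arrays limits the precision.

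Alternatives were other scalings and background corrections, filters, probe rules, the slide or sex in the model, males only, other eBayes settings, array weights, each array left out and a threshold of 0.1. Normexp used the median spot signals in the files. Per-mouse values were given for members that passed or define a class, and list genes were named where they passed, up to 4 per list, or 2 as values where none did. Other members given per mouse, Clec18a and other list genes named were chosen after their values were seen. Members and lists were chosen with earlier results of these data known. One gene of the list of other lectin genes is not reported here. Values of the lists and of Cd207 without WT 3 or with the slide block were added after seeing the data.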

Additional observations from a re-analysis of the deposited data

How the results depend on the processing

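Fcna, Mrc1 and Cd209a kept their direction under all 20 alternatives that refit the whole table. Fcna lost its call with the slide as a fixed block (adjusted p = 0.0669) and on the 1 slide with both genotypes (0.0955). Mrc1 lost it in these 2 settings (0.0756 and 0.145), with males only (0.134) and without KO 948, KO 949, WT 1 or WT 2 (0.0713, 0.0633, 0.0536 and 0.0674). Cd209a lost it under 13 of 20, with an adjusted p of up to 0.268, and passed without KO 947 (0.0358) among the 6 fits that leave out 1 array.

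The 3 members called became 7 with array weights (3 higher, 4 lower), 5 with trend and robust, 7 at an adjusted p under 0.1, 1 with males only and 0 by limma with the slide as a fixed block or on 1 slide, where 8 had an unadjusted p under 0.05. Leaving out 1 array gave 1 to 4 members, with 1 without KO 948, KO 949, WT 1 or WT 2. The 537 genes called became 24 on 1 slide, 84 with a fixed and 255 with a random slide block, 1747 with array weights, 810 with trend and robust, 182 with males only, 275 with no filter, 343 with quantile normalization, 305 with sex as a covariate and 1151 at an adjusted p under 0.1. They became 77 (without WT 1) to 900 (without KO 947) when 1 array was left out, with 135, 188, 150 and 283 without KO 948, KO 949, WT 2 and WT 3. Array median scaling called 384 higher and 230 lower genes (62.5% higher), against 33.5% higher in the main setting. The members' median of -0.06 was -0.14 on 1 slide or with a fixed block, 0.16 with median scaling and -0.24 with males only. The cause of these shifts was not tested.

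The direction turned in 13 genes that were not called. On 1 slide and with the fixed block the differences were 0.0115 for Clec9a, -0.38 for Clec4a2, 0.0218 for Clec4d, 0.47 for Ly75, -0.0503 for Lgals3bp and -0.15 for Siglece. With the random block they were -0.00293 for Clec4a2, 0.0212 for Ly75, -0.0162 for Lgals3bp and -0.0182 for Siglece. With median scaling they were 0.17 for Clec4d, 0.15 for Clec4n, 0.0414 for Mgl2, 0.00613 for Ly75, 0.16 for Lgals3 and 0.0355 for Siglech. Males only gave -0.28 for Clec4a2, 0.13 for Ly75 and -0.0147 for Lgals3bp. Quantile normalization gave 0.0204 for Clec4d, 0.00642 for Clec4n and -0.0496 for Siglece, and normexp 0.0443 for Clec4d and -0.0593 for Siglece. The mean of probes gave -0.0482 for Lgals3bp, and other probes -0.0811 for Clec1b, -0.10 for Lgals3bp, -0.16 for Siglec1 and 0.20 for Siglecg. Leaving out 1 array gave ranges that include 0: -0.11 to 0.52 for Clec4a2, -0.118 to 0.0426 for Clec4d, -0.178 to 0.0585 for Clec4n, -0.55 to 0.0883 for Ly75, -0.206 to 0.066 for Lgals3, -0.0416 to 0.0283 for Lgals3bp and -0.11 to 0.144 for Siglece.

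No paired analysis was possible because the genotypes share no replicate numbers. Dim probes such as those of Clec12a and Mrc2 carry levels near background, where differences are not measured well.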

Other observations

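Cd207 encodes langerin, a C-type lectin of Langerhans cells and some dendritic cells, and was singled out after its values were seen. It was above background on no KO array, with -7.58, -7.74 and -7.56 in KO 947, KO 948 and KO 949, against -3.47, -4.30 and 0.04 in WT 1, WT 2 and WT 3. Its signal was at least 10.4-fold lower in KO macrophages, but the limma test over all genes was just outside the threshold (adjusted p = 0.0524), and with a slide block the adjusted p was 0.203. WT 3 was the highest array by over 3 log2 units. Without WT 3 the signal was at least 4.21-fold lower in KO macrophages (limma adjusted p = 0.00560). Cd207 was kept for testing only through the 3 WT arrays, and its KO values lay at background. These p-values therefore support no call, and only the bounds are read here. The bound sets the WT mean against the higher of each KO array's lowest signal well above background and its own value.

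The 36 lectin genes lie on 8 chromosomes, with 15 on chromosome 6, 6 on chromosome 7 and 5 each on chromosomes 2 and 11. All 3 members that passed lie elsewhere than chromosomes 6 and 7, Fcna and Mrc1 on chromosome 2 and Cd209a on chromosome 8. Fcna and Mrc1 are 98 protein-coding genes apart, and Fcna and Fcnb 60.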
